A study of Mus musculus with 2 samples.

Results

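The Mir130 and Mir301 family comprised 4 of the 1973 microRNA genes counted in embryonic liver at day 11.5, from mice of strain B6NCrl. Its genes were Mir130a, Mir130b, Mir301 and Mir301b, found by their GENCODE symbols, and each symbol matched 1 counted gene. Each of the 2 small RNA libraries (size range under 30 nucleotides) was made from total RNA of a pool of livers of healthy embryos of both sexes, with 109 embryos in the pool of replicate 1 and no pool size stated for replicate 2. Both libraries formed 1 group with no allele or agent named, so the questions were how abundant each gene was, how the genes stood to each other, and how far the libraries differed. The genes were chosen by their shared seed and selected on their CPM levels in these same libraries, which were known beforehand, and the levels below are therefore descriptions without a test.

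Replicate 2 held 1584499 reads on the strand of a counted gene and replicate 1 held 3344673, and a level in CPM is the count per 1000000 of these assigned reads. The label of liver was checked against markers: the hepatocyte list held 3.81% of the counts in replicate 2 and 3.48% in replicate 1, with 4 of 6 genes detected, that is with at least 10 counts in both libraries. Most of these counts came from Mir122, with 54644 in replicate 2 and 102610 in replicate 1. Mir122 and Mir192 had higher levels in replicate 2, and the other genes of this list had lower ones there. Other cell types were present too: Mir126a, the counted endothelial gene, held 8.01% in replicate 2 and 5.74% in replicate 1, and the smooth muscle and mesenchyme list held 3.29% in replicate 2 and 2.2% in replicate 1. The erythroid list held 1.13% in replicate 2 and 0.833% in replicate 1, and the leukocyte list 0.813% in replicate 2 and 1.04% in replicate 1. Mir146a of the leukocyte list matched no counted symbol. A counted gene named Mir146, with 135 counts in replicate 2 and 427 in replicate 1, was left out of it. Genes within a list did not all move together. Of the smooth muscle and mesenchyme list, Mir143, Mir145a and Mir199a-1 had higher levels in replicate 2, and Mir214 and Mir199a-2 lower ones. Mir143 had 37387 counts in replicate 2 and 38370 in replicate 1, and Mir214 had 13915 and 33148. Mir144 and Mir451a of the erythroid list were higher in replicate 2, and Mir486 lower. Of the detected leukocyte genes, Mir223 was higher there, and Mir150, Mir155 and Mir342 lower. The shares of these lists moved between the libraries, and their part in the differences given below was not tested. The striated muscle and neural lists each held at most 0.088% in either library. Of their genes, Mir1a-1, Mir133a-1, Mir133a-2, Mir9-2, Mir124a-1 and Mir124a-3 had 0 counts in both libraries, and they have close copies whose shared reads were not counted. The labels number the libraries as biological replicates without saying how each pool was gathered, so the spread between them may be technical as well as biological. In RNA of a whole organ, fewer cells of a type and less RNA per cell cannot be told apart.

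MicroRNAs of this family are cut from the 3′ arm and 5′ arm of a short hairpin and guide Argonaute to messenger RNAs that carry a match to the seed, which is bases 2 to 8 of the mature RNA. The family is known for repressing the adipocyte regulator Pparg, and in human endothelial cells miR-130a is known for repressing the homeobox genes MEOX2 and HOXA5, which restrain vessel growth. The liver at this stage is both an epithelial bud invaded by vessels and a site of blood formation.

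The hairpins show what the 4 genes have in common and how they differ. They are credited to RefSeq (GRCm38.p6), where all 4 genes were matched by symbol with the same coordinates and sequence as in GENCODE M21, and capitals mark the letters of the family seed:
Mir130a, chr2:84741115-84741178, minus strand: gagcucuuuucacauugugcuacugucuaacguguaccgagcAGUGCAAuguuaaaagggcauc
Mir130b, chr16:17124061-17124142, minus strand: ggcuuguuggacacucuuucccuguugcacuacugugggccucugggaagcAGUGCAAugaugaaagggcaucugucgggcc
Mir301, chr11:87113004-87113089, plus strand: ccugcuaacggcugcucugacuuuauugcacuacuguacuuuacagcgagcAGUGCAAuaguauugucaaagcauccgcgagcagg
Mir301b, chr16:17124400-17124496, minus strand: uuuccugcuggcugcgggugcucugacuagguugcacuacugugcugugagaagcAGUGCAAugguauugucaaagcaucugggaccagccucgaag
Each hairpin held the seed letters once. The hairpins were 64 bases long for Mir130a, 82 for Mir130b, 86 for Mir301 and 97 for Mir301b, with GC contents of 45.3%, 56.1%, 48.8% and 53.6% in that order of genes.

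The mature 3p arms of Mir130a, Mir130b and Mir301 share their first bases and differ towards their 3′ ends, as shown with the seed in capitals:
miR-130a-3p: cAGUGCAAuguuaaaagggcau
miR-130b-3p: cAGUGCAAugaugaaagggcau
miR-301a-3p: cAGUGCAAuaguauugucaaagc
miR-301a-3p is the arm of Mir301. No 3p arm was listed for Mir301b, although its hairpin holds the seed letters. These 3 arms share their first 9 bases, the run CAGUGCAAU. miR-130a-3p and miR-130b-3p were identical at 20 of 22 positions and differed by U11A and A13G, counted from 1 at the 5′ end with the base of miR-130a-3p first. miR-130a-3p and miR-301a-3p were identical at 12 of 22 positions, and miR-130b-3p and miR-301a-3p at 11 of 22.

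The 5p arms carry other seeds, again in capitals, and only miR-301a-5p and miR-301b-5p have the same seed:
miR-130a-5p: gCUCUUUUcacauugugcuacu
miR-130b-5p: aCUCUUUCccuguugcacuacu
miR-301a-5p: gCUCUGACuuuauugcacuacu
miR-301b-5p: gCUCUGACuagguugcacuacu
The seed CUCUGAC was shared by miR-301a-5p and miR-301b-5p, and the longest run common to the 4 arms was CUACU. In 3 of the 4 arms, all but that of miR-130a-5p, the letters UUGCACU stood from base 13 onwards. These letters are the reverse complement of the 3p seed. Reads were counted per gene, so a count does not tell which arm, and hence which seed, it came from.

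The RefSeq table of 1738 mature RNAs lists no 3p arm for Mir301b. Among these RNAs, 7 carried the family seed, 3 of them the arms above. The other 4, from genes outside the family, are shown because they carry the same seed:
miR-130c: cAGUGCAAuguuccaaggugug
miR-6341: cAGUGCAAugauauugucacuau
miR-6389: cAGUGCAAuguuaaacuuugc
miR-721: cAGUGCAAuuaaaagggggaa
Mir130c, Mir6341 and Mir6389 had 0 counts in both libraries, where the limit set by 3 counts per library is 1.89 CPM for replicate 2 and 0.897 for replicate 1, for counting error only. Mir721 was not among the counted genes and was not analysed here. Among counted genes with this seed, all reads therefore lay in the 4 family genes.

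All 4 genes were detected, and Mir130a led. Over all counted genes 17.6% were detected, 347 of 1973. Together the family held 3.49% of the assigned counts in replicate 2 (95% exact Clopper-Pearson interval 3.465 to 3.522) and 3.39% in replicate 1 (3.369 to 3.408), a mean of 3.44 ± 0.0737% (SD, n = 2). The intervals cover counting error of the reads only, and they did not overlap between the libraries. The sources describe no molecular identifiers.

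Mir130a (ENSMUSG00000065484.1), which lies outside other annotated genes on chromosome 2, had 26007 CPM in replicate 2 (95% exact Poisson interval 25757 to 26259) and 23239 in replicate 1 (23076 to 23403). That placed it at rank 7 in replicate 2 and rank 9 in replicate 1, with a mean of 24623 ± 1957 CPM (SD, n = 2). The nearest annotated genes were Gm19426, 990 bases away on the same strand, and Ypel4, 2459 bases away on the other strand. No other counted microRNA gene lay within 10000 bases, so Mir130a stood as a single gene.

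Mir130b (ENSMUSG00000065572.1) lies on chromosome 16 in an intron of the protein-coding gene 2610318N02Rik, on the same strand. It had 7590 CPM in replicate 2 (7455 to 7727) and 8364 in replicate 1 (8267 to 8463), rank 40 in replicate 2 and rank 33 in replicate 1. Its mean was 7977 ± 548 CPM (SD, n = 2). It was thus the second most abundant family gene in both libraries.

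Mir301 (ENSMUSG00000065589.1) lies on chromosome 11 in an intron of Ska2, which encodes a subunit of the complex that ties spindle microtubules to kinetochores, on the same strand. It had 1216 CPM in replicate 2 (1163 to 1272) and 2135 in replicate 1 (2086 to 2185), rank 101 in replicate 2 and rank 77 in replicate 1, with a mean of 1676 ± 649.7 CPM (SD, n = 2). Its SD was 38.8% of its mean, against 7.95% for Mir130a and 6.87% for Mir130b, so it was the family gene that varied most between the libraries.

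Mir301b (ENSMUSG00000076288.1) lies 257 bases upstream of Mir130b, in the same intron of 2610318N02Rik and on the same strand. It had 118 CPM in replicate 2 (102 to 136) and 149.5 in replicate 1 (137 to 163), from 187 counts in replicate 2 and 500 in replicate 1. It ranked 209 in replicate 2 and 204 in replicate 1, and its mean was 134 ± 22.25 CPM (SD, n = 2). Although the lowest of the family, it stood far above what a count of 0 allows.

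**Figure D1:**
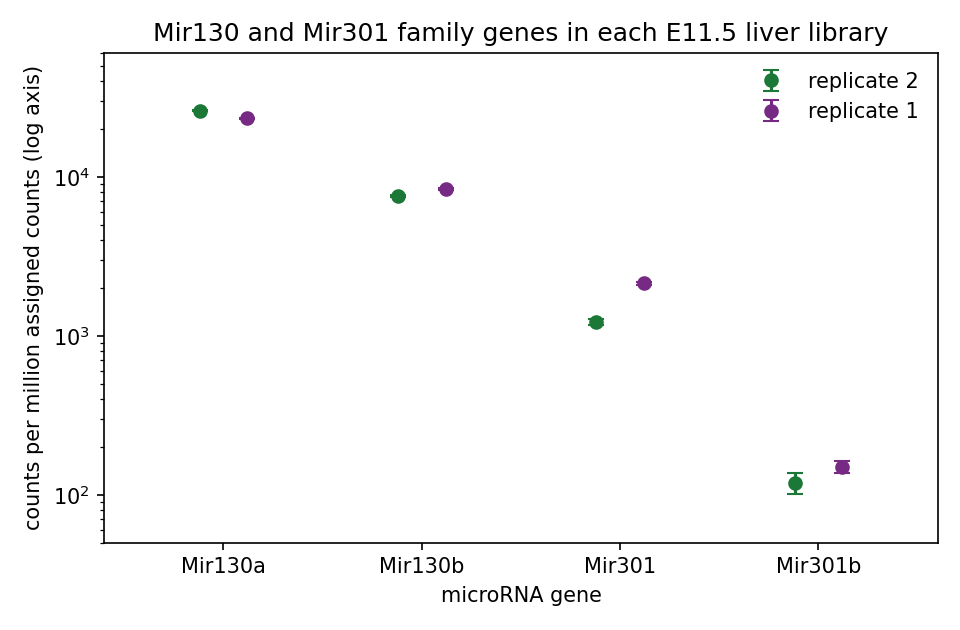
CPM (log axis) of the 4 family genes in replicate 2 and replicate 1, with bars for the 95% exact Poisson interval of the count. The genes run from 26007 and 23239 CPM for Mir130a down to 118 and 149.5 CPM for Mir301b, and no gene overlaps its neighbour.

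The order Mir130a, Mir130b, Mir301, Mir301b was the same in both libraries, and for all 3 pairs of neighbours in it the values of the higher gene lay above those of the lower gene in every library. Levels of different genes are compared here as CPM, since microRNA reads come from the short mature RNA and not from the whole hairpin. These are levels of reads, and how reads of different genes relate to amounts of RNA was not tested. Per base of the annotated hairpin the order could not change, because the hairpins get longer from Mir130a to Mir301b as the levels fall. The values were 406 CPM per base for Mir130a, 92.6 for Mir130b, 14.1 for Mir301 and 1.22 for Mir301b in replicate 2. In replicate 1 they were 363, 102, 24.8 and 1.54. The family thus spanned more than 2 orders of magnitude on either scale.

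**Figure D2:**
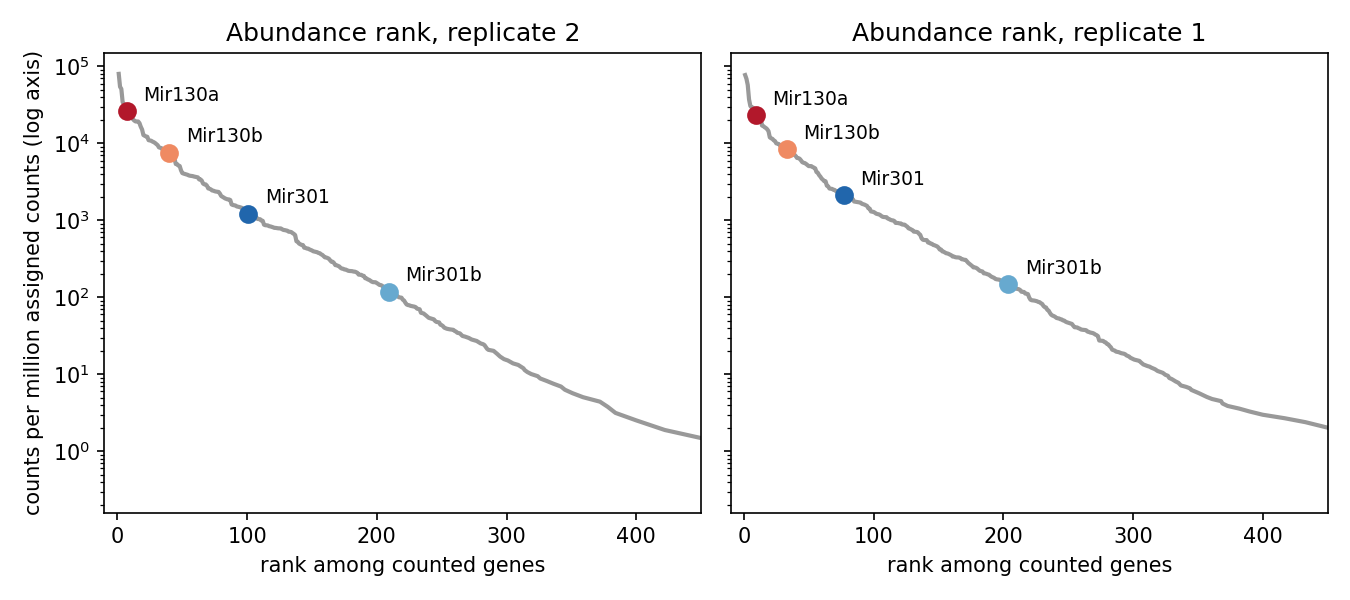
CPM (log axis) against rank for the counted genes of replicate 2 (left) and replicate 1 (right), with the 4 family genes as coloured points. Mir130a sits on the steep start of the curve at ranks 7 and 9, and Mir301b near rank 200 at 209 and 204.

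Most of the family's reads came from a single gene. Mir130a made up 74.5% of them in replicate 2 (95% exact Clopper-Pearson interval 74.1 to 74.8) and 68.6% in replicate 1 (68.3 to 68.8). Mir130b gave 21.7% in replicate 2 and 24.7% in replicate 1. Mir301 gave 3.48% in replicate 2 (3.33 to 3.64) and 6.30% in replicate 1 (6.16 to 6.44). Mir301b gave 0.338% in replicate 2 and 0.441% in replicate 1, so the Mir301 forms were the minor part of the family in both libraries.

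Ratios between genes within a library need no scaling between libraries. Mir130a stood over Mir130b by 3.43 in replicate 2 (95% exact binomial interval 3.36 to 3.50) and by 2.78 in replicate 1 (2.74 to 2.82). Over Mir301 it stood by 21.4 in replicate 2 (20.4 to 22.4) and by 10.9 in replicate 1 (10.6 to 11.1), which differ by a factor of 1.965. The ratio of Mir130b to Mir301 was 6.24 in replicate 2 and 3.92 in replicate 1. The ratio of Mir301 to Mir301b was 10.3 in replicate 2 (8.86 to 12.0) and 14.3 in replicate 1 (13.0 to 15.7). Ratios that involve Mir301 moved more between the libraries than that of the neighbours Mir130b and Mir301b.

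The neighbours Mir130b and Mir301b, which share an intron, had very unequal counts. Mir130b exceeded Mir301b by 64.3 in replicate 2 (55.7 to 74.7) and by 55.95 in replicate 1 (51.2 to 61.2), and these intervals overlapped. Whether this ratio differed between the libraries was not tested. For scale, 69 pairs of adjacent counted genes lay on the same strand with a gap of up to 1000 bases and both genes detected. The median ratio of the higher to the lower count in these pairs was 6.91 in replicate 2 and 7.11 in replicate 1. The Mir130b and Mir301b pair ranked 8 in replicate 2 and 10 in replicate 1, and 7 pairs were further apart in both libraries. In 3 of these 7 pairs the lower gene, Mirlet7c-1 or Mir19b-1, carries a mature sequence that another gene carries too, so its count can be too low and the ratio too large. The remaining 4 pairs had Mir19a, Mir1188 or Mir1197 as the lower gene. The mature 3p arm of Mir19a is nearly the same as that of Mir19b-1, and whether it lost reads was not tested. No family gene had a listed mature arm shared with another gene, but for Mir301b only the 5p arm was listed. This comparison was not planned beforehand and is a description with no test.

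**Figure D3:**
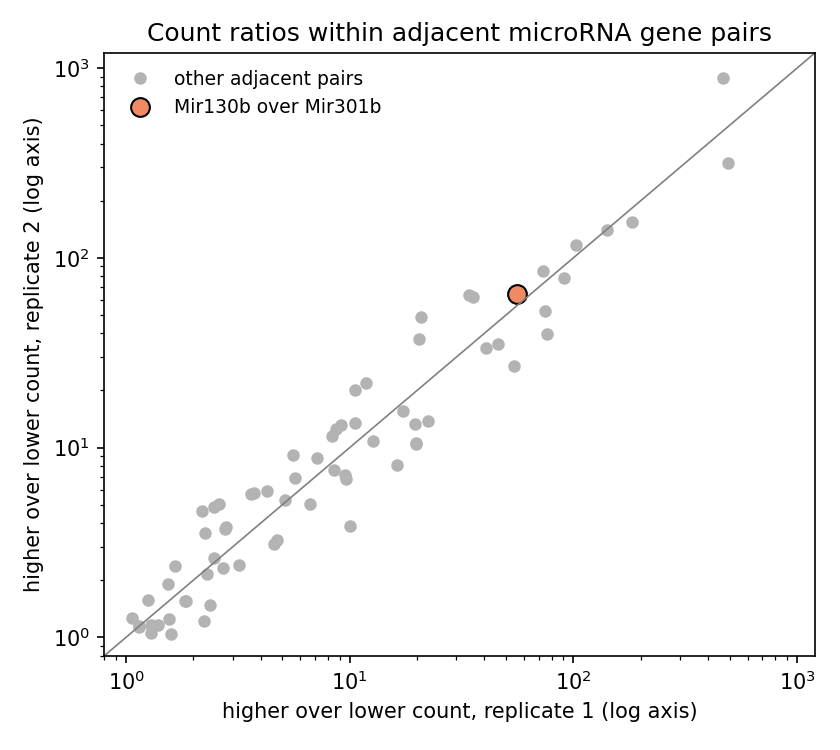
Ratio of the higher to the lower count (log axes) in replicate 2 against replicate 1 for the 69 adjacent gene pairs, with the line of equal values. Mir130b over Mir301b, at 64.3 and 55.95, lies in the upper part of the cloud and close to the line.

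Near-identical copies can cost a gene its reads, because reads that match several places were kept out of the gene counts. The longest run of bases that a family hairpin shared with any of 2201 other microRNA hairpins of GENCODE M21, on either strand, was 17 bases for Mir130a (with Mir6389), 16 for Mir130b (with Mir6368), and 16 for Mir301 and Mir301b (with each other). All of these are shorter than the 22 or 23 bases of the listed mature arms. Exact runs do not show near matches, however. Over the 23 bases of miR-301a-3p, the hairpins of Mir301 and Mir301b differ at a single base. The mismatches allowed in alignment are not given, and whether reads of these genes were mixed or lost was not tested. Copies elsewhere in the genome were not searched for.

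Between the libraries all 4 family genes stayed within 2-fold. Each of the 454 genes with at least 10 summed counts was tested with a two-sided exact binomial test against library sizes scaled by the trimmed mean of M values (TMM), with Benjamini-Hochberg adjustment over all 454. This test compares 2 libraries, not conditions, and knows only counting noise. A gene was called when its adjusted p was under 0.05 and its fold 2 or more. By this rule 0 of the 4 family genes were called, against 7.27% of all tested genes. These were 33 genes, 22 of them higher in replicate 2 (4.85%) and 11 lower in replicate 2 (2.42%), or 19 and 15 when scaled by total counts. At an unadjusted p under 0.05 all 4 family genes passed, as did 53.5% of all tested genes, and at an adjusted p under 0.05 and any fold all 4 passed, as did 49.1%. With edgeR's exact test and an assumed biological coefficient of variation of 0.2, 0 of 4 had an unadjusted p under 0.05, against 11.2% of all tested genes, and by the call rule above 1 of the 454 genes passed.

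Mir130a was 1.17-fold higher in replicate 2, a log2 ratio of 0.22 with an adjusted p of 6.461e-140 in the exact binomial test. Mir130b was 1.06-fold lower in replicate 2, a log2 ratio of -0.08 with an adjusted p of 1.898e-06 in that exact test. Mir301 was 1.68-fold lower in replicate 2, a log2 ratio of -0.75 with an adjusted p of 6.842e-99 in the exact test. Mir301b was 1.21-fold lower in replicate 2, a log2 ratio of -0.28 with an adjusted p of 0.04815 in the exact test. The 3 lower genes thus had the opposite sign to Mir130a. With the assumed coefficient of variation of 0.2, edgeR's exact test gave Mir301 an adjusted p of 0.482.

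Set beside other well-counted genes, Mir301 had the largest difference of the family. Among 152 tested genes whose counts averaged 1000 or more, 14.5% had a larger absolute log2 ratio than Mir301, 65.1% a larger one than Mir130a and 81.6% a larger one than Mir130b. Mir301b did not reach that count, and 66.7% of all tested genes had a larger absolute log2 ratio. The median log2 ratio of the 4 family genes was -0.18, against 0.014 over all tested genes.

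**Figure D4:**
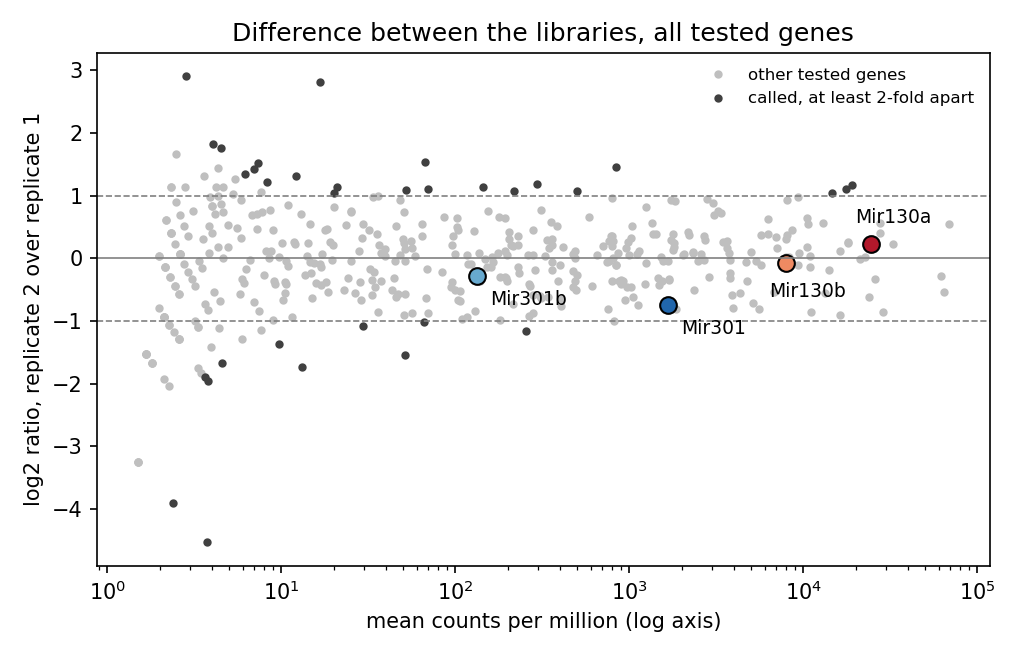
Log2 ratio of replicate 2 over replicate 1 against mean CPM (log axis) for the 454 tested genes, with dashed lines at 2-fold, dark points for the called genes and coloured points for the family. All 4 family genes lie inside the dashed lines, with Mir301 lowest at -0.75 and Mir130a highest at 0.22.

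The genes closest to each family gene in level were sought over both libraries by the distance in log2(CPM + 1). Nearest to Mir130a was Mir26b, with 22264 CPM in replicate 2 and 22991 in replicate 1, followed by Mir99a and Mir322. Nearest to Mir130b was Mir298, with 7783 CPM in replicate 2 and 8047 in replicate 1, followed by Mir92-1 and Mir15a. Nearest to Mir301 was Mir182, with 1313 CPM in replicate 2 and 2392 in replicate 1, followed by Mir302d and Mir196b. Nearest to Mir301b was Mir19a, with 119 CPM in replicate 2 and 160 in replicate 1, followed by Mir128-1 and Mir187. Over 2 libraries this likeness is one of level.

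Families whose seeds overlap that of Mir130 and Mir301 by a shift of 1 base were far less abundant in counted reads. They are shown with their seeds in capitals, because shifted seeds share part of their target letters:
miR-148a-3p: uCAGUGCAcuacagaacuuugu
miR-148b-3p: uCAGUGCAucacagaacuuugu
miR-152-3p: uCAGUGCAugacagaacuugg
miR-19a-3p: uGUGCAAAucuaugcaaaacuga
miR-19b-3p: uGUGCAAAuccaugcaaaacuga
The Mir130 and Mir301 family held 3.49% of the counts in replicate 2 and 3.39% in replicate 1, against 0.187% in replicate 2 and 0.259% in replicate 1 for Mir148a, Mir148b and Mir152 together. Mir19a, Mir19b-1 and Mir19b-2 together held 0.0194% in replicate 2 and 0.0237% in replicate 1. No test of these differences was made. Mir148a, known from hepatocytes, had 1226 CPM in replicate 2 and 1725 in replicate 1, where Mir301 had 1216 and 2135. Mir148b had 500.5 and 713 CPM and Mir152 had 145 and 152 CPM in replicates 2 and 1. Mir19b-1 had 58.1 and 59.5 CPM and Mir19b-2 had 17.0 CPM in both. Mir19b-1 and Mir19b-2 carry the same mature miR-19b-3p, so their reads match several places and their counts can be too low. As printed, miR-19a-3p differs from miR-19b-3p at a single base. Whether reads of Mir19a were mixed or lost for that reason was not tested.

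A list of 17 microRNAs known from blood vessels was set beside Mir130a, whose human counterpart is known from endothelial cells. Genes were matched by symbol, and Mir18a of the list matched no counted gene. A counted gene named Mir18, between Mir17 and Mir19a on chromosome 14, was therefore left out. It had 16053 counts in replicate 2 and 39041 in replicate 1. All 14 genes that matched were detected, against 17.6% of all counted genes. Their median level was 6002 CPM, against 264.5 CPM over all 347 detected genes. The list was written with earlier results of these data known, so these values are a description only. By mean, 2 of the 14 lay above Mir130a. The 3 most abundant were the endothelial Mir126a, with 80051 CPM in replicate 2 and 57443 in replicate 1, the proliferation-linked Mir17, with 51029 and 77281 CPM in replicates 2 and 1, and its cluster neighbour Mir20a, with 18331 and 29234 CPM. Mir20a lay below Mir130a in replicate 2 and above it in replicate 1, so the order of these genes was not resolved. Mir126a and Mir130a were both higher in replicate 2, while Mir17 and Mir20a were lower there. The part that cell composition plays in these values was not tested.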

How the data were processed

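The deposited files hold whole-number read counts per microRNA gene, not normalised, in 3 columns: without regard to strand, on the strand of the gene and on the opposite strand. Per the descriptions deposited with the files, reads were aligned to mm10 and counted with GENCODE M4. The aligner, counter and trimming are not given in the sources used here, and the meaning of the columns was read from the values. The 4 summary classes that name no gene, 71.0% of reads in replicate 2 and 73.8% in replicate 1, stayed out of library sizes and tests.

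CPM was computed from the count on the gene strand. Symbols and coordinates came from GENCODE M21 on the same assembly by identifier: 1894 of 1973 genes matched. edgeR's quasi-likelihood test could not be fitted, since 1 group of 2 libraries leaves no contrast, so an exact binomial test on TMM-scaled sizes was used, with 0.5 added to each count for log2 ratios. It was tested on simulated data. Named genes were the family, genes sharing its seed, genes of shifted seeds, the 3 nearest in level to each, neighbours within 10000 bases, and the 3 most abundant of a blood vessel list. The genes and lists were chosen with earlier results of these data known. Alternatives were the unstranded column, other denominators, scalings and filters, levels per base, and leaving out each library. Tools were R 4.3.3, edgeR 4.0.16, DESeq2 1.42.0, Python 3.11.15, scipy 1.17.1 and pandas 2.3.3. Sequences are RefSeq's.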

Additional observations from a re-analysis of the deposited data

Results flagged for a closer look

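Reads on the strand opposite to a family gene, a column that no level above uses, were found at Mir130a only, where replicate 2 had 0 and replicate 1 had 5. The 5 reads exceed the 3 counts that a count of 0 allows, and are 0.00643% of the reads counted there on both strands. At Mir130b, Mir301 and Mir301b both libraries had 0 reads on that strand.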

How the results depend on the processing

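No paired analysis was possible because the libraries formed a single group. Of 100 values under other settings, 23 moved and 0 changed sign. The other 77 did not move. Levels, shares and ratios stayed within 1 SD of the 2 libraries, and counts of genes within 1.5 times. Log2 ratios stayed on the same side of both the call and 0, whatever their size. Part of these 77 was fixed in advance. For levels, shares and ratios, the value of 1 library always lies within 1 SD of the mean of 2. Leaving out a library could therefore not move them, nor the order of the genes, which was the same in both. Dividing by hairpin length could not change that order either. Adding the counted genes outside the family with its seed, which had 0 counts, could not move the family share. The unstranded column could not move ratios among Mir130b, Mir301 and Mir301b, which had 0 reads on the opposite strand. TMM and DESeq2 scaled the 2 libraries by small and opposite factors, which left mean levels little room to move. Counting without regard to strand gave 22347 CPM for Mir130a, 7242 CPM for Mir130b and 3.12% for the family. The counts of the family genes were nearly unchanged there. The assigned total rose to 1752390 reads in replicate 2 and 3670308 in replicate 1. Against all reads, summary classes included, the levels were by construction 6814, 2196, 456 and 36.7 CPM of all reads for Mir130a, Mir130b, Mir301 and Mir301b, and the family held 0.9503%. Leaving Mir126a out of the denominator gave 8562 CPM for Mir130b and 3.70% for the family, by construction. Per base of the hairpin, the ratio of Mir130a was 3.975 over Mir130b and 284.8 over Mir301b, and that of Mir130b over Mir301b 71.1. Of the 33 genes called between libraries (22 higher in replicate 2, 11 higher in replicate 1), edgeR's exact test with an assumed coefficient of variation of 0.2 called 1 (1 and 0), a minimum of 100 summed counts left 15 (11 and 4), and dropping the fold limit gave 223 (118 and 105). The comparison of adjacent gene pairs was not planned beforehand. Allowing gaps of up to 10000 bases in it, chosen after seeing the data, left 11 of 101 pairs further apart than Mir130b and Mir301b. Leaving out a library leaves 1, whose values stand above; ratios of Mir130a over Mir301 then ran from 10.9 to 21.4. The family gene with the fewest counts was Mir301b, with 187 in replicate 2, and its Poisson interval was the widest relative to its level.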
